A study of Saccharomyces cerevisiae with 6 samples.

Results

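The change in active RNAP II between 30 and 60 min after release from the G1 arrest was measured by genomic run-on (GRO). It was read at 5737 of the 6144 spots of a yeast macroarray, from 6 run-on hybridizations and the genomic DNA hybridizations of their filters. The whole series holds 34 hybridizations. The run-on hybridizations at 0 min entered the test only to estimate the spread. A spot was included when it had a ratio of run-on RNA to genomic DNA in 2 or more of the 3 replicates at each of these times, and no measured change entered that choice. All cells were wild-type Saccharomyces cerevisiae of strain BY4741 that carried the plasmid pRS316 and had been held in G1 with the mating pheromone alpha factor. The pheromone was then washed out, and cells were taken at 0 (still arrested), 30 and 60 min. The 30 and 60 min groups therefore share the arrest, the wash and the plasmid, and differ in the time spent in fresh medium. Filters 1, 2 and 4 received the run-on RNA at 30 min, and filters 5, 6 and 7 received that at 60 min. No filter carried both times, so a difference between these sets of filters that the genomic DNA does not remove cannot be told apart from a change with time. The label of the 30 min sample names replicates 1 and 2, while 3 hybridizations belong to it, and all 3 were used.

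In GRO, cells are permeabilized with a detergent that stops new initiation, and polymerases already engaged on a gene extend their transcripts with radioactive UTP. The label thus marks polymerases that were able to elongate, while RNAp ChIP with an antibody to the subunit Rpb3 also recovers polymerases that are bound and stalled. After alpha-factor release, yeast cells bud and replicate their DNA before they enter mitosis, and sets of genes are switched on and off in turn: histone genes in S phase, for example, and the genes for mitotic cyclins later. Cells are bulk samples here, so a change in the share of cells at a given stage and a change within each cell cannot be told apart. The arrays identify a spot by its row, column and position in a block, and nothing in hand pairs a spot with a gene. Gene names and functions were therefore not assigned, no gene group could be described, and the labelled stages could not be checked against known cycling genes.

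Before any scaling, the run-on signal relative to genomic DNA was higher at 60 min. The median log2 ratio of a hybridization was -0.48, -0.43 and -0.44 in replicates 1 to 3 at 30 min. At 60 min it was 0.61, 0.54 and 0.40. The groups did not overlap and their means differed by 0.97, a 1.96-fold difference in the linear ratio (-0.45 ± 0.03 against 0.51 ± 0.11, SD, n = 3). The exact two-sided permutation test gave p = 0.10, the smallest value that 3 against 3 hybridizations can reach. The amount of label and the exposure of each filter are not given in the sources used here, so this difference was not read as a change in total transcription. Each hybridization was centred on its own median before all that follows, and every change below is relative to the typical spot of its filter.

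The spread of the ratios over the array did not separate the times. Their SD across spots was 1.50 ± 0.03 at 30 min and 1.49 ± 0.03 at 60 min (n = 3 each, exact permutation p = 0.70). The levels kept most of their order: the replicate means at 30 and 60 min correlated with Pearson's r = 0.860 across the 5737 spots, which share filters and probes and are no independent replicates. Among hybridizations of 1 time, r was 0.761 to 0.798 for 30 min, while the range for 60 min was 0.800 to 0.850. Hybridizations of different times gave 0.726 to 0.801. Of the 287 spots with the highest ratio at 30 min (5%), 164 were also among the highest 287 at 60 min (57.1% of each list). Among the lowest 287 the number was 211 (73.5%). Apart from the main cloud, 45 spots had a mean log2 ratio below -5 at both times. All of them were among the brightest 2% by genomic DNA signal. Their median change was -0.30 and none passed the test.

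**Figure D1:**
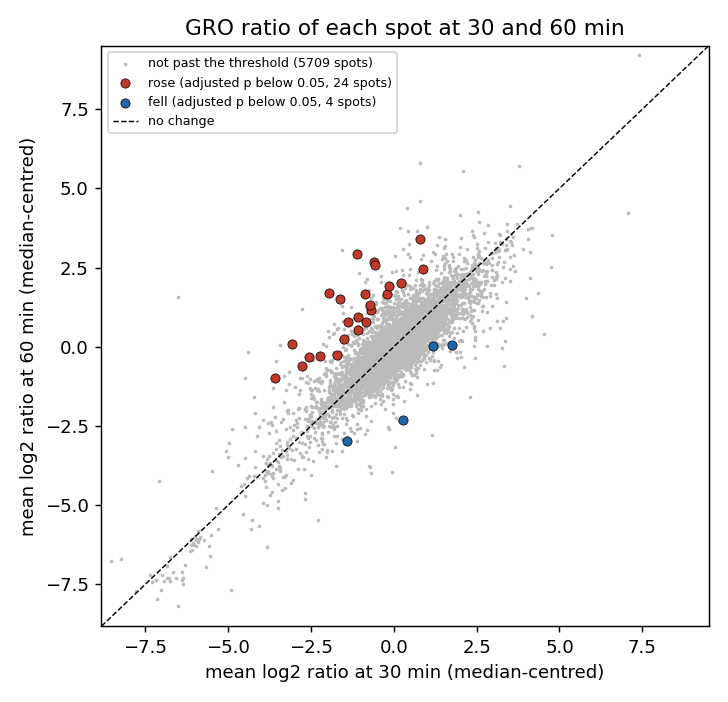
Mean log2 ratio of run-on RNA to genomic DNA at 30 min (x) and 60 min (y), each hybridization centred on its median, 1 point per spot. The 24 spots that rose (red) and the 4 that fell (blue) lie off the diagonal; the 45 spots below -5 at both times form the cloud at the lower left.

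The GRO ratio changed between 30 and 60 min at 28 of 5737 spots, 0.488% of those tested (limma's moderated test, Benjamini-Hochberg adjusted p below 0.05). Of these, 24 rose (0.418%) and 4 fell (0.0697%). The rises ran from 1.45 to 4.05 on the log2 scale with a median of 2.11, that is from 2.73-fold to 16.5-fold with a median of 4.31-fold. The falls ran from -1.16 to -2.58, or 2.24-fold to 5.99-fold. Most of the spots that rose went from below to above the typical spot: 21 of the 24 had a mean log2 ratio below 0 at 30 min, and 19 of the 24 had one above 0 at 60 min. Their median level went from -1.08 to 1.24, where the SD of levels over all spots was 1.37 at either time. At 27 of the 28 spots all 6 values were present and the 3 values of each time did not overlap. The remaining spot lacked 1 value at 30 min. The calls rest on these same values, which favours such a separation, so it is a description only.
Many more spots moved by smaller or less certain amounts. Without adjustment, 782 spots (13.6%) had p below 0.05, of which 398 were higher and 384 lower at 60 min. All 3 values at 60 min lay above all 3 at 30 min at 571 of the 5337 spots with complete values (10.7%), and below them at 668 (12.5%). The even balance in these wider counts was not seen among the 28 called spots, and this difference was not tested. The median residual SD was 0.401 and the median standard error of a change 0.33 on the log2 scale, so a typical spot needed a large change to pass. The number of called spots was 4, 11 and 3 without replicate 1, 2 or 3 at 30 min, and 4, 3 and 7 without replicate 1, 2 or 3 at 60 min. It was 8 in a fit of the 6 hybridizations at 30 and 60 min alone and 227 (122 higher, 105 lower) with the filter as a random block.

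The spot R15 - C16 : 15 had the largest rise among those described singly. Its log2 ratio was -1.07, -1.69 and -0.57 in the 3 replicates at 30 min, and 2.43, 3.42 and 2.97 at 60 min. All values at 60 min were thus above the typical spot of their filter and all values at 30 min below it. The change was 4.05 (standard error 0.39, adjusted p = 0.00646, limma). Most of the change lay in the RNA: run-on RNA alone, centred on the median of its hybridization, rose by 3.68. The median run-on intensity over all spots was itself higher at 60 min, at 93, 98 and 197 against 47, 44 and 36 at 30 min. Before centring, run-on RNA at this spot read 49.8, 26.9 and 53.4 at 30 min against 978, 1427 and 2458 at 60 min. Genomic DNA on the same filters read 146, 117 and 107 against 119, 91.5 and 237. At 0 min its ratio was -2.37, -2.42 and -1.60, below all values at 60 min and overlapping those at 30 min.

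The spot R11 - C6 : 6 rose by a similar amount from a different history. It was at -2.02, -1.51 and -2.34 at 30 min, and at 2.23, 1.24 and 1.66 at 60 min. The values of the times were more than 2 units apart, and the change was 3.66 (standard error 0.31, adjusted p = 0.00491, limma). Before centring, run-on RNA at this spot read 28.3, 26.3 and 23.7 at 30 min against 655, 531 and 1461 at 60 min. Centred on the median of its hybridization, it rose by 3.43. In the arrested cells the ratio had been high, at 2.47, 2.36 and 2.65, above each value at 60 min. This spot was therefore low only at 30 min among the 3 times sampled.

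The spot R8 - C5 : 8 was at 1.74, 1.79 and 1.75 at 30 min, and at 0.47, -0.29 and -0.03 at 60 min. All 3 replicates at 30 min were close together and above the other time, and the change was -1.71 (standard error 0.26, adjusted p = 0.0382, limma). Its run-on RNA before centring overlapped, at 665, 598 and 446 at 30 min and 481, 311 and 547 at 60 min. Centred, the RNA alone changed by -1.88. At 0 min the ratio had been at -0.98, -0.42 and -0.49, so its highest values were those at 30 min. The spot R15 - C2 : 4 was a weakly labelled one, at -1.20, -1.25 and -1.81 at 30 min and at -3.18, -3.0 and -2.77 at 60 min. It changed by -1.56 (standard error 0.24, adjusted p = 0.0382, limma) and had been at -2.94, -2.63 and -2.87 at 0 min, within the range of the 60 min values or close to it. Its run-on RNA before centring also overlapped, at 23.8, 23.1 and 20.0 at 30 min and 10.2, 17.2 and 52.2 at 60 min. Centred, the RNA alone changed by -1.59. Both falls in RNA thus appear only relative to the typical spot. Both falls had an adjusted p above 0.05 whichever hybridization at 30 or 60 min was left out (0.0719 to 0.146 and 0.0723 to 0.146), while both rises stayed below 0.05 (highest 0.0444 and 0.0387).

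**Figure D2:**
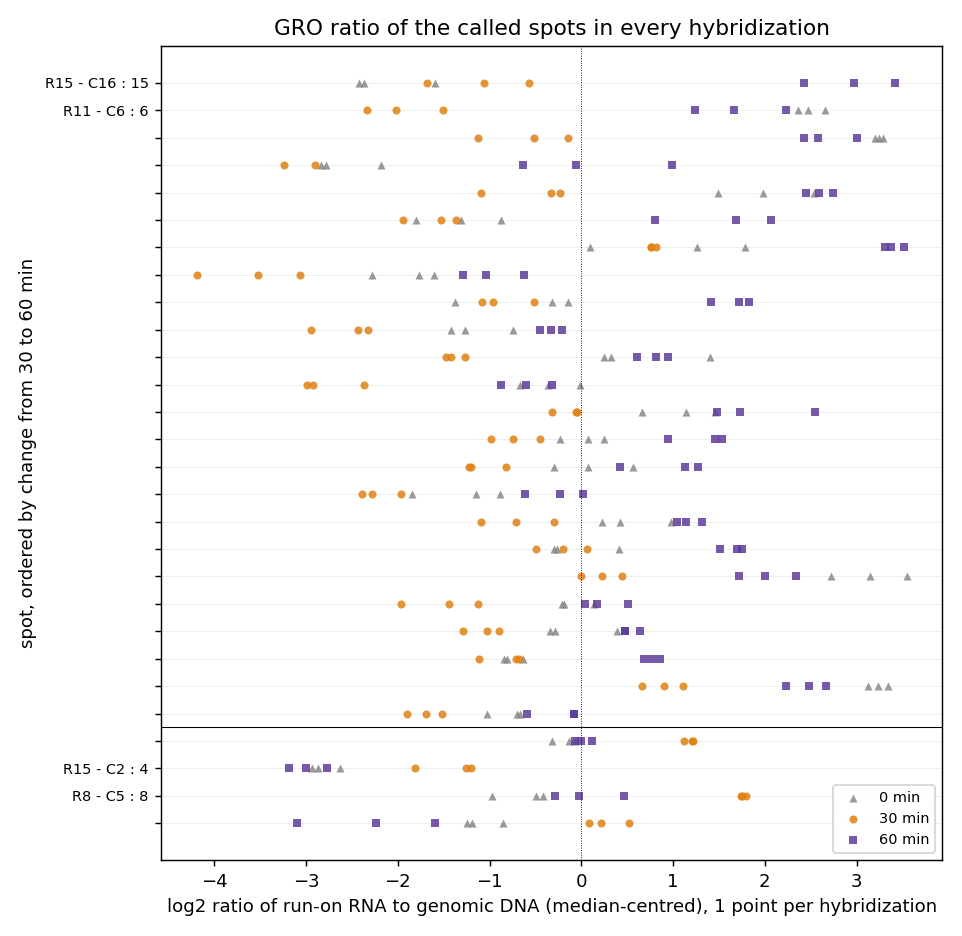
Log2 ratio of run-on RNA to genomic DNA (x, median-centred) of the 28 called spots (rows, ordered by change), 1 point per hybridization at 0 min (grey triangles), 30 min (orange circles) and 60 min (purple squares). The line parts the 24 spots that rose from the 4 that fell; the grey points lie nearer the purple ones at 15 of the 24 and at all 4 of those below the line.

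The level in the arrested cells, which the comparison of 30 with 60 min does not use, differed among the spots that rose. At 15 of the 24 the mean at 0 min was nearer to that at 60 min. Their median levels were 0.54 at 0 min, -1.08 at 30 min and 0.94 at 60 min. At the other 9 the mean at 0 min was nearer to that at 30 min, with median levels of -0.76, -0.85 and 1.52 in the same order. At all 4 spots that fell the mean at 0 min was nearer to that at 60 min. Over all spots with a value at 0 min, 55.3% were nearer to the 60 min level. The 62.5% among the risers is near that background and is no result about them.
The tests against 0 min give the same levels another way. They share the 30 or the 60 min hybridizations with the comparison above, by which these spots were chosen. That choice favours the directions below, so the counts are a description and the shares over all spots are no test of them. Filters 1 and 6 also carried RNA of the arrested cells. From 0 to 30 min, 11 of the 24 spots fell and none rose, with a median change of -1.21, while 3 of the 4 others rose, with a median of 1.38. Over all spots that comparison called 5.16%, with a median change of -0.01. From 0 to 60 min, 8 of the 24 rose and none fell, with a median of 0.82, and none of the 4 others passed, with a median of 0.01. There the share over all spots was 2.35% and the median -0.03.

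Through filters 1 and 6 the change can be taken within filters. The change from 0 to 60 min on filter 6 minus that from 0 to 30 min on filter 1 was 3.72 at R15 - C16 : 15, 3.07 at R11 - C6 : 6, -2.52 at R8 - C5 : 8 and -1.86 at R15 - C2 : 4. It uses 1 of the 3 replicates of each time, which also entered the choice of these spots, and so is a description with no test. Over all 5565 spots with these values it correlated with the reported change at r = 0.455, part of which comes from the hybridizations they share.

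Total RNAP II was measured at the same spots by RNAp ChIP, as the log2 ratio of precipitated DNA (IP) to whole cell extract (WCE), on hybridizations that GRO does not share. No filter is named for them. Whether filters were shared between the RNAp ChIP times, or with GRO, is therefore not known. The titles and descriptions of the ChIP samples exchange 30 and 60 min. The descriptions were followed, and under the titles every sign given here for RNAp ChIP would be the opposite. Between 30 and 60 min a change in RNAp ChIP was called at 109 of 5891 spots (1.85%, limma, adjusted p below 0.05), of which 81 rose (1.37%) and 28 fell (0.475%). At all 24 spots that rose in GRO the change in RNAp ChIP was positive, from 0.46 to 2.68 with a median of 1.56, and at 13 of them it passed the test. At all 4 that fell in GRO it was negative, from -0.15 to -1.15, and none passed. The median over all 5698 spots measured in both assays was 0.03, with 52.6% positive. The 13 spots called in both assays were 46.4% of the GRO calls and 11.9% of the RNAp ChIP calls. Without replicate 1, 2 or 3 of RNAp ChIP at 30 min 22, 68 and 18 spots changed, and without replicate 1, 2 or 3 at 60 min 53, 28 and 28.

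At R11 - C6 : 6 the RNAp ChIP log2 ratios at 30 min were -1.0, 0.32 and -0.58, and those at 60 min were 1.52, 1.26 and 1.27. The replicates did not overlap, and the change was 1.77 (standard error 0.33, adjusted p = 0.0384, limma). At R15 - C16 : 15 the values were -0.84, 2.09 and 0.30 at 30 min, and 2.64, 2.19 and 2.30 at 60 min. Replicate 2 at 30 min stood close to the 60 min values there, and the change of 1.86 did not pass (standard error 0.60, adjusted p = 0.162, limma). At R8 - C5 : 8 the 30 min values were 3.07, 3.08 and 1.99 and those of 60 min 2.26, 1.44 and 1.96, which overlap (adjusted p = 0.378, limma). At R15 - C2 : 4 they were -1.34, -1.19 and -1.32, against -1.67, -1.04 and -1.61, which also overlap (adjusted p = 0.756, limma).
The change was larger in GRO than in RNAp ChIP at 24 of the 28 called spots, and the median ratio of the RNAp ChIP to the GRO change over them was 0.505. Over all 5698 spots measured in both assays, the change was larger in size in RNAp ChIP at 2403. The called spots were chosen on their GRO change, which favours large values in that assay, and the difference between the assays was not tested. Seen from the other side, 78 of the spots that rose in RNAp ChIP were also tested in GRO. Their GRO change was positive at 70, passed the test at 13 and had a median of 0.89. Of the 27 that fell in RNAp ChIP and were tested in GRO, 25 were lower in GRO as well, with a median of -0.82. The median GRO change over all spots tested was -0.04, so slightly more spots were lower than higher in any case.

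**Figure D3:**
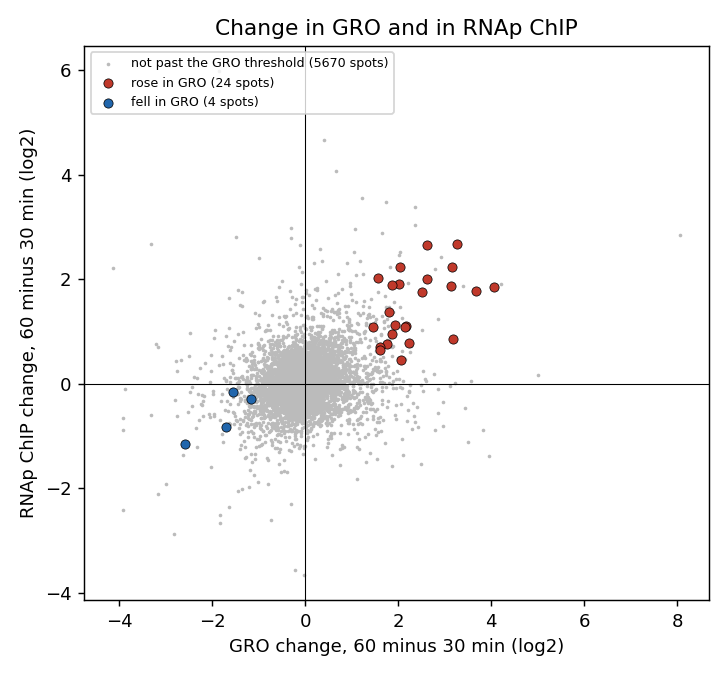
Change from 30 to 60 min in GRO (x) and in RNAp ChIP (y), both on the log2 scale, for the 5698 spots measured in both. The 24 spots that rose in GRO (red) all lie above 0 in RNAp ChIP and the 4 that fell (blue) all lie below it, while the other spots scatter with a weak slope.

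Across all spots the changes in the assays went together only weakly. Pearson's r was 0.235 over 5698 spots and Spearman's rho 0.209, and 56.8% of spots had the same sign in both. Single replicates of GRO set against the mean RNAp ChIP change gave r from 0.151 to 0.193 over 9 pairs. The relation was closer at brighter spots: r was 0.133, 0.256, 0.381 and 0.449 from the dimmest to the brightest quartile of spots by genomic DNA signal. The 571 spots whose GRO values at 60 min all exceeded those at 30 min had a positive RNAp ChIP change in 72.7% of cases, with a median of 0.25. For the 665 spots with GRO values all lower at 60 min and a value in RNAp ChIP, the share with a negative change was 64.7% and the median -0.14. Points share probes and hybridizations, so these values are descriptions without a test.

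The ratio draws on hybridizations of RNA and of genomic DNA, and both differed between the times. At the 28 called spots the run-on RNA alone, centred on its median, moved the same way as the ratio in every case. It made up a median of 93.5% of the change in the ratio (42.3% to 136%). The genomic DNA of filters 5, 6 and 7 differed from that of filters 1, 2 and 4 by more than 1 on the log2 scale at 1 of the 28. Tested without genomic DNA, run-on RNA changed at 28 spots as well (0.488%), of which 21 rose and 7 fell and 14 were also called in the ratio.
Over the whole array, the genomic DNA contributed as much as the RNA. The SD across spots was 0.729 for the change in run-on RNA, 0.786 for the difference in genomic DNA between the sets of filters and 0.724 for the change in the ratio. RNA and genomic DNA moved together at r = 0.536, while the ratio went against the genomic DNA at r = -0.535. The dimmest quartile of spots was the least certain. There the SD of the change was 1.09 and r with the genomic DNA -0.65, against 0.52 and -0.29 in the brightest quartile. From the dimmest to the brightest quartile 5, 6, 9 and 8 spots were called. Of the 20 spots with a change of 3 or more, 16 were among the 25% of spots with the dimmest genomic DNA, and 6 of the 20 passed the test. None of the 13 spots with a change of -3 or less passed, and 11 of them were dim. The largest change of all, 8.06, was at a spot picked out after its values were seen, with log2 ratios of -1.44 and -11.5 at 30 min and 2.30, 0.38 and 2.02 at 60 min. Its run-on intensity in the third replicate at 30 min was 0.009, and its adjusted p was 0.313 (limma).

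The change differed with the place on the array, and the cause of this was not tested. The median change in the ratio went from -0.29 in array column 1 to 0.10 in column 24, and was -0.13 over columns 1 to 12 and 0.06 over columns 13 to 24. The run-on RNA alone showed the same slope, from -0.18 to 0.04, while the genomic DNA went from 0.05 to -0.11. In single hybridizations, columns 1 to 12 minus columns 13 to 24 gave -0.07, -0.03 and 0.22 at 30 min, and -0.12, -0.14 and -0.14 at 60 min. Replicate 3 at 30 min, on filter 4, thus stood apart from the other 5. Of the 28 called spots 16 lay in columns 1 to 12, which are 12 of the 24 array columns. At 60 min 13 of these 16 were higher and 3 lower. Whether the place on the filter had a part in the calls was not tested. With the median of each column removed, a choice made after this slope was seen, 28 spots were called, 22 of them among the first 28.
By position within a block, the RNA and the genomic DNA differed together between the sets of filters. At position 10 the median difference was -0.67 in RNA and -0.80 in genomic DNA, and 0.12 in the ratio. None of the 358 spots tested at position 10 was called, where the share over all spots was 0.488%. Positions 3, 11 and 12 held no called spot either. The part of these differences in the calls was not tested.

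**Figure D4:**
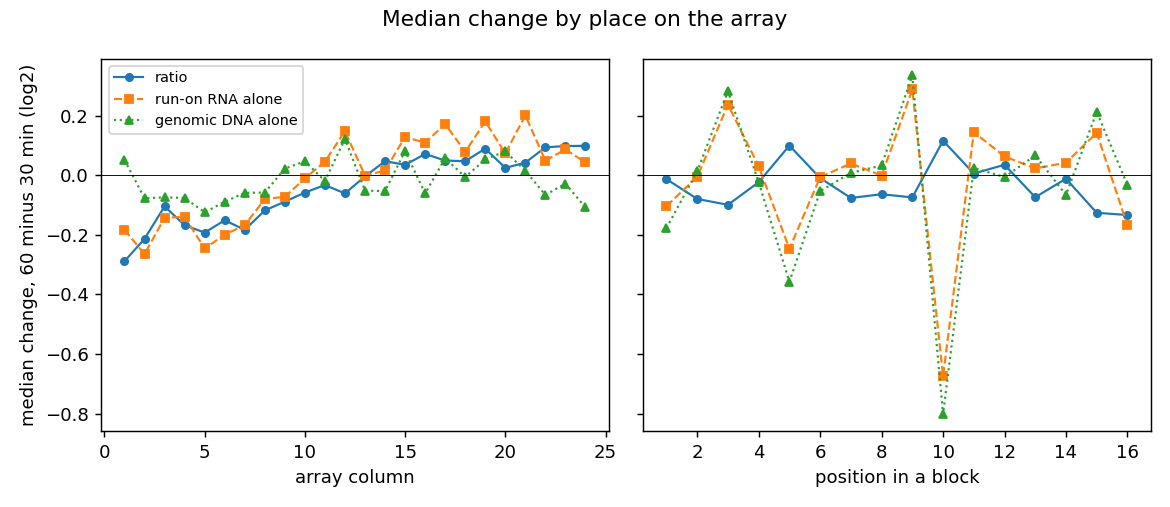
Median change from 30 to 60 min (y, log2) by array column (left) and by position in a block (right), for the ratio (circles), run-on RNA alone (squares) and genomic DNA alone (triangles). The ratio rises from -0.29 to 0.10 over the columns, and at position 10 the RNA and genomic DNA drop to -0.67 and -0.80 while the ratio is at 0.12.

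The 407 spots that were not tested had too few values. At 97 of them no replicate of either time gave a ratio. At 12 spots there was no ratio at 30 min and there were 3 at 60 min, and at 4 spots the reverse. Run-on RNA was listed at 0 in all 3 replicates at 30 min and above 0 in all 3 at 60 min, with genomic DNA above 0 on all 6 filters, at 2 spots, and the reverse held at 2 spots. No fold change was given for these.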

How the data were processed

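Spot intensities from nylon filters that carry whole ORFs were used. The authors read them on a phosphorimager, quantified them with ArrayVision and deposited background-subtracted intensity for each hybridization, without scaling between hybridizations; a value of 0 was taken as missing. The study's cut-off against the local background was not applied, since the values in hand hold no background. GRO values were log2 of run-on RNA over the genomic DNA of its filter, and RNAp ChIP values log2 of IP over the same-numbered WCE. The median of a hybridization was then subtracted from all its values, as in the global median method of the study. For RNAp ChIP the study also took its rDNA spots as the background level. That step was not applied here. Groups came from the sample labels, and replicate and filter numbers from the names of the hybridizations. The study speaks of 3 experiments but no label ties a replicate number to one of them, so p-values measure the spread between these hybridizations, which may be in part technical. Their number, 3 per group, limits the precision.

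The test was limma (version 3.58.1 under R 4.3.3; lmFit, eBayes) on all spots and the 9 hybridizations at 0, 30 and 60 min. Adjusted p-values (Benjamini-Hochberg) below 0.05 were called. The 0 min hybridizations only add to the estimate of the spread. Single values per hybridization were compared by exact permutation. Descriptions used Python 3.11.15 with pandas 2.3.3. The members and the choices were made with earlier results of these data known. Spots described singly were the 2 largest rises and 2 largest falls among called spots with 6 values, no overlap between times, and genomic DNA outside the dimmest 25%. Alternatives are given at the end.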

Additional observations from a re-analysis of the deposited data

How the results depend on the processing

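The count of 28 called spots was recomputed under 16 other settings besides leaving out replicates. Under 10 of these it was within 1.5 times of 28. It was 8 with the hybridizations at 30 and 60 min alone, 18 with a pseudocount of 1 and zeros kept, 73 (53 higher, 20 lower) without the 25% of spots with the dimmest genomic DNA, and 227 (122 higher, 105 lower; all 28 included) with the filter as a random block. The share that rose was 85.7% in the reported fit and 53.7% in the last of these. A replicate block left 4 called spots in a fit of 9 hybridizations and 0 in one of 6, where 741 spots (12.9%) had an unadjusted p below 0.05 in limma. For the pairs 1, 2 and 3 of same-numbered GRO hybridizations, deviations from the group means correlated at r = 0.024, 0.029 and 0.0084. Differently numbered pairs gave -0.027 to 0.0029, below each of these, and the difference was not tested. No label ties a number to one of the study's 3 experiments. The numbers were therefore not read as pairs, though these values do not settle whether they are. With 1 replicate left out the count of called spots was 3 to 11. Why the count differs between settings was not tested. The 28 calls held 13 of those made with the mean genomic DNA of the 7 filters (31 spots) and 16 of those made after block medians were removed (28 spots).
In RNAp ChIP 41 spots changed with the replicate block, and 18 to 68 with 1 replicate left out, against 109. Run-on RNA alone changed at 67 spots without the dimmest 25%, against 28. Between GRO and RNAp ChIP changes r was 0.334 without the dimmest 25%, 0.259 with column medians removed, and 0.205 to 0.247 with 1 replicate left out, against 0.235. The RNAp ChIP change had the sign of the GRO change at 27 or 28 of the 28 spots with 1 replicate of either assay left out. The difference in the ratio before centring was 0.92 to 1.03 with 1 replicate left out. The changes at the 4 spots described singly kept their sign in all 22 settings with a test. Their choice as large changes without overlap favours that. The adjusted p (limma) was below 0.05 in 21 of the 22 settings at R15 - C16 : 15 and also in 21 at R11 - C6 : 6. At R8 - C5 : 8 it was so in 12, and at R15 - C2 : 4 in 8. None of the settings run turned the sign of r or of the difference before centring. The count of 27 called spots with the same sign came without replicate 1 of RNAp ChIP at 30 min. The times in the titles of the RNAp ChIP samples were not run as a setting and would turn every RNAp ChIP sign.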
